A study of Mus musculus with 14 samples.

Results

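The genes described here are 10 keratins that build the filaments of normal epidermis and its appendages: Krt5, Krt14 and Krt15 of the basal layer, Krt1, Krt10, Krt2 and Krt77 of the layers above it, and Krt79, Krt19 and Krt80. They were chosen by gene symbol and not by their measured values, and all 10 were present among the 35327 named genes of the table. Another 45 keratin genes were measured in the same libraries. The samples were neck skin of female C57BL/6J mice, measured as polyadenylated RNA in 14 libraries of 5 groups. Untreated skin of wild-type mice aged 6 weeks gave 2 libraries. The other 12 libraries came from skin painted for 6 days with the vitamin D analogue calcipotriol (MC903), which provokes a dermatitis, at 1 nmol in 100 µL a day. Of these, 3 were from wild-type mice aged 6 weeks that received an isotype control antibody and 3 from mice of the same age and strain that received MAR1, an antibody to the alpha chain of the high-affinity IgE receptor that is used to deplete basophils. Both antibodies were injected into the peritoneum at 20 µg, with 3 injections before MC903 and more during it. The remaining libraries came from mice with a floxed Il4ra gene (Il4ra fl/fl), 3 without Cre and 3 that also carried Pdgfra-Cre (cKO), all aged 6 to 7 weeks and without injections. In the cKO mice the IL-4 receptor alpha gene is deleted in cells that express Pdgfra, such as dermal fibroblasts, so keratinocytes are not the cells the Cre is directed at.

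Keratin filaments are made of pairs of a type I and a type II keratin, which assemble together and give the epithelial cell its mechanical strength. In mouse epidermis the proliferating basal cells make Krt5 (type II) with Krt14 (type I), and cells that leave the basal layer switch to Krt1 (type II) with Krt10 (type I). Krt2 and Krt77 are type II keratins of the layers above the basal one, Krt15 is a type I keratin of basal cells and of the hair follicle bulge, Krt19 is a type I keratin of the bulge and of simple epithelia, Krt79 marks the upper hair follicle canal and the sebaceous duct, and Krt80 is a type II keratin of differentiating epithelial cells. The type I genes of the set lie on chromosome 11 and the type II genes on chromosome 15.

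Library totals ranged from 5728994 to 55291558 estimated counts, with the MAR1 libraries lowest (5728994 to 10582112). Markers of keratinocytes were present in every library, with summed levels of 7750.2 and 20855.2 CPM (counts scaled to the library total) in untreated skin and from 4479.8 (MAR1) to 47021.6 (fl/fl) in MC903-treated skin, and this list shares 4 genes with the keratins described. The share of counts on 1984 olfactory and vomeronasal receptor genes, which skin is not known for, was 3.88% to 9.38% in MAR1, 0.467% to 2.58% in cKO and at most 0.439% in the other libraries. Salivary gland transcripts summed to as much as 21173.2 CPM in fl/fl skin, carried by fl/fl 1 and 2, and to at most 84.7 in the other groups. Skeletal muscle transcripts were also highest in fl/fl (14538.8 to 60674.2 CPM, against 24.1 to 14622.1 elsewhere). Il4ra, the gene deleted in the cKO mice, was at 214.5, 145.5 and 176.1 CPM in fl/fl and 70.7, 67.9 and 14.5 in cKO skin, and at 45.8, 23.3 and 9.02 in MAR1 against 195.7, 178.6 and 192.8 in isotype. These are counts over the whole gene in whole skin, so they check the deletion only in part. In bulk skin, fewer cells of a type and less RNA per cell cannot be told apart.

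RefSeq promoter windows were held for 6 of the 10 genes (Krt5, Krt14, Krt10, Krt2, Krt77 and Krt79). Shown are the 250 bases before the start of 4 of them, and these genes took different paths in the results. Krt77 fell in treated skin, and Krt2 was the lowest of the set in untreated skin. Krt10 fell under MAR1, and Krt5 overlapped untreated skin in 3 of the 4 treated groups. All are on the minus strand of GRCm38.p6 and are written 5′ to 3′ in the direction of transcription, Krt77 at chr15:101869706-101869955, Krt2 at chr15:101818170-101818419, Krt10 at chr11:99389365-99389614 and Krt5 at chr15:101712906-101713155. Capitals mark the letters TATATA or GATAAAA, which were picked after the sequences were seen.
Krt77: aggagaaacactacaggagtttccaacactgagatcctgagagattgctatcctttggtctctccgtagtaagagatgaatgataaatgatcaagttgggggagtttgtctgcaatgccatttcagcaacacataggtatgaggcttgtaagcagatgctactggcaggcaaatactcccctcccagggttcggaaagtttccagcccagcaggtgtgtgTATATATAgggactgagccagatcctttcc
Krt2: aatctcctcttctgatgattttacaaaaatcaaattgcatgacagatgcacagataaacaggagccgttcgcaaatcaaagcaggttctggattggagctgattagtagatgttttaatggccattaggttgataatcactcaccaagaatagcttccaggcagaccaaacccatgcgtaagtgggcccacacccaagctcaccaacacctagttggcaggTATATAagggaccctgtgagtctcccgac
Krt10: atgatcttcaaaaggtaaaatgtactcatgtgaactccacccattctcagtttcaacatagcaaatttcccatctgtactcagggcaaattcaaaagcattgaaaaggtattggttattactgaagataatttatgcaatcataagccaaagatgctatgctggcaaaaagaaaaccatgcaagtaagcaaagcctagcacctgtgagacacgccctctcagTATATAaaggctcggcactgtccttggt
Krt5: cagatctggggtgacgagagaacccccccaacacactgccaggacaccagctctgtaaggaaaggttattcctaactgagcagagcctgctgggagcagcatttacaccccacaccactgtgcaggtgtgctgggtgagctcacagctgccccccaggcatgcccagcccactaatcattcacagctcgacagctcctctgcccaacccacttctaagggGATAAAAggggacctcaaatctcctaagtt

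TATATA began 28 bases before the start in Krt10, 29 in Krt2, and 30 and 28 in Krt77, where 2 copies overlap. GATAAAA began 30 bases before the start in Krt5. The windows shown are those that hold TATATA or GATAAAA before the start. Krt14 held neither, and the start used for it lies 1518 bases from that of its principal transcript. Krt79 held GATAAAA only past the start. Searched on both strands, TATATA occurred in 5.67% and GATAAAA in 3.45% of the 32851 promoter windows of 300 bases. The AP-1 motif TGANTCA occurred in 7.81% of all windows and in 0 of the 6 keratin windows, which says only that these letters are not there.

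The make-up of the keratin message differed between untreated and MC903-treated skin. Each gene's level was divided by the length of its transcript (CPM per kilobase) and expressed as a share of the sum over the 10 genes in the same library. In untreated skin Krt10 took the largest share, 29.3% ± 0.844 (SD, n = 2), followed by Krt77 with 21.1% ± 0.181 and Krt15 with 19.6% ± 0.545. Krt5 held 12.2% ± 0.113, Krt14 9.39% ± 1.51 and Krt1 2.97% ± 0.676. The 2 untreated libraries had nearly the same make-up although each of the 10 genes was higher in CPM in untreated 1 than in untreated 2.

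In each of the 12 MC903-treated libraries Krt14 was the leading keratin per length, at 47.7% to 74.5% of the sum, and Krt77 held at most 3.01%. Krt1 took 5.98% to 17.8% and Krt10 2.5% to 21.6%. Krt15 held 0.827% to 12.7%, with its highest share, 12.7%, in MAR1 library 3. The treated and untreated libraries did not overlap in the shares of Krt14, Krt1, Krt10, Krt15 or Krt77. The fl/fl and cKO mice differ from the untreated ones in genotype as well as in treatment, and the isotype and MAR1 mice in their injections.

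**Figure D1:**
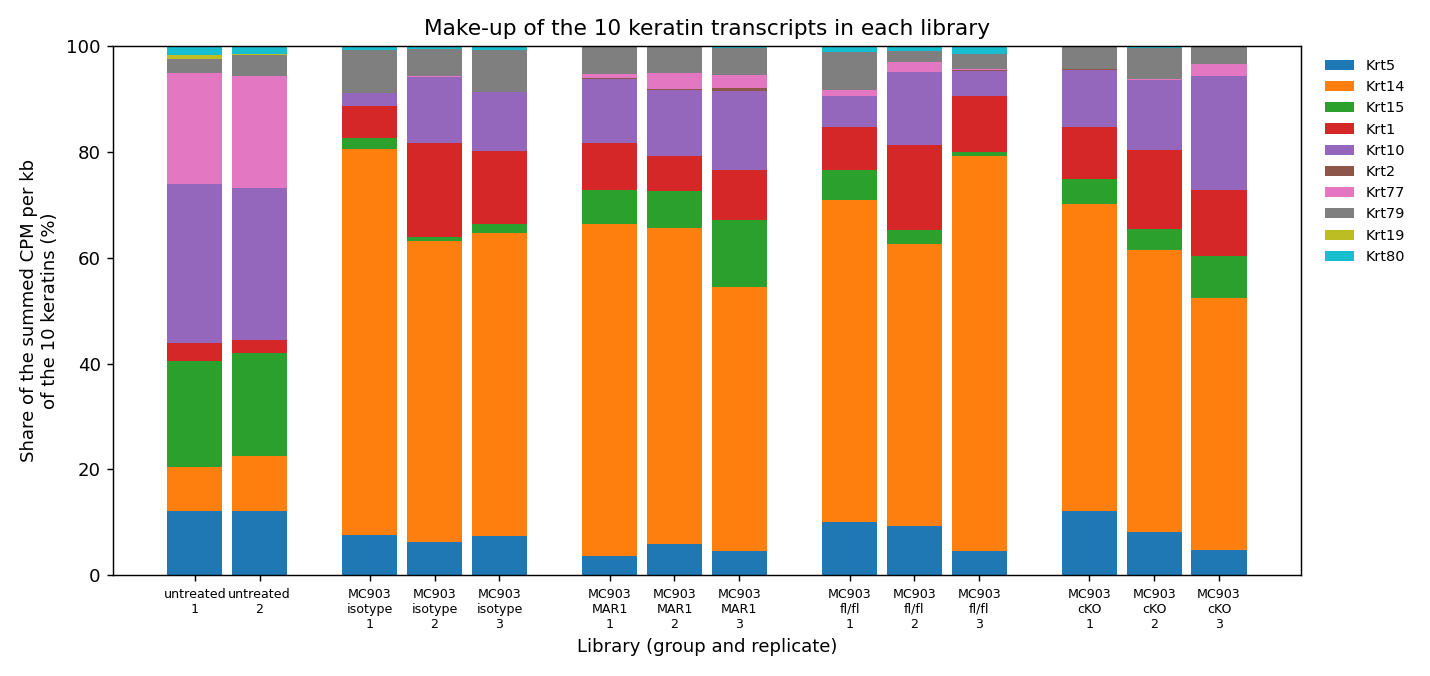
Share of each of the 10 keratins in their summed CPM per kilobase (y axis, percent), 1 bar per library, grouped by condition on the x axis. Krt10, Krt77 and Krt15 fill most of the 2 untreated bars, and Krt14 fills 47.7% to 74.5% of each of the 12 MC903 bars.

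Ratios of keratins within a library do not depend on how libraries are scaled. The log2 ratio of Krt5 to Krt14 counts was 0.75 ± 0.25 (SD, n = 2) in untreated skin and -2.77 ± 0.16 in isotype, -3.24 ± 0.41 in MAR1, -2.67 ± 0.83 in fl/fl and -2.40 ± 0.53 in cKO skin (n = 3 each). Krt1 to Krt10 went from -3.09 ± 0.29 in untreated skin to 0.92 ± 0.51 in isotype, -0.45 ± 0.22 in MAR1, 0.84 ± 0.48 in fl/fl and -0.02 ± 0.49 in cKO. Thus the counts of Krt5 to Krt14, and of Krt1 to Krt10, did not keep the untreated ratio in the treated libraries. In both ratios all treated libraries lay on 1 side of both untreated ones. Of the Krt14 transcript's stretches of 31 bases, 29.1% also occur in other genes, above all Krt16 and Krt17. What this sharing adds to the Krt14 shares and ratios was not tested. The ratio of Krt10 to Krt14, the type I keratins of the suprabasal and basal layer, was 1.96 ± 0.27 in untreated skin and between -2.83 and -1.56 as means of the treated groups. Krt77 to Krt1 was 3.10 ± 0.34 in untreated skin and -7.66 ± 0.95 in isotype, -1.94 ± 1.22 in MAR1, -3.59 ± 1.59 in fl/fl and -5.08 ± 2.47 in cKO skin. By an exact two-sided permutation test over libraries, each of these 4 ratios gave p = 0.2 in every comparison of a treated group with untreated skin, the smallest p that 3 against 2 allows (adjusted p = 0.26 over 60 tests), so none could pass 0.05.

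**Figure D2:**
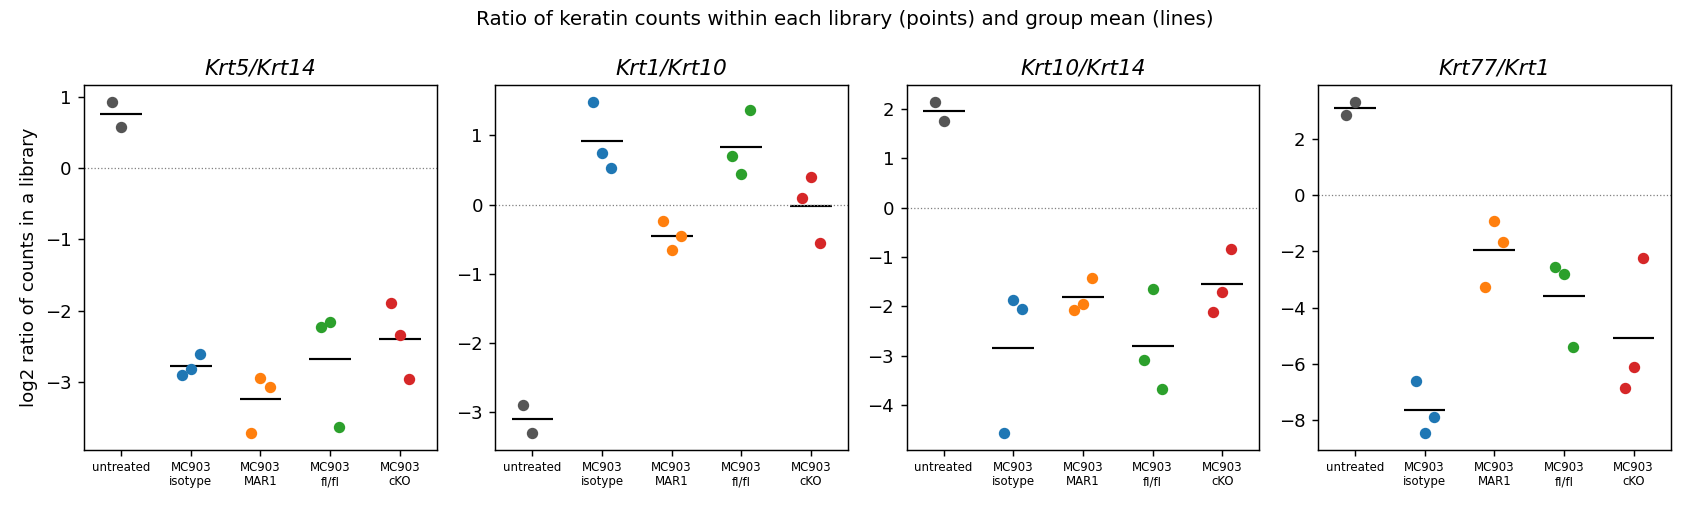
Log2 ratio of counts of 2 keratins within each library (y axis) by group (x axis), with 1 point per library and lines at group means. The untreated points lie apart from all treated points in each of the 4 panels, above for Krt5/Krt14, Krt10/Krt14 and Krt77/Krt1 and below for Krt1/Krt10.

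Levels and fold changes are given next by layer. Levels are CPM after trimmed-mean (TMM) scaling, and fold changes are log2 values ± SE from edgeR's quasi-likelihood test with Benjamini-Hochberg adjustment over 20939 genes, called at an adjusted p under 0.05. The 4 comparisons with untreated skin share the same 2 control libraries, so their values are set side by side and are not independent of each other. In isotype against untreated skin, 4 of the 10 keratins were called (3.08% of all genes), 1 higher (1.35%) and 3 lower (1.72%). In MAR1, 6 were called (49.4% of all genes), 0 higher (23.4%) and 6 lower (25.9%). In fl/fl, 2 were called (1.72% of all genes), 0 higher (0.769%) and 2 lower (0.950%). In cKO, 3 were called (6.82% of all genes), 1 higher (3.86%) and 2 lower (2.96%). Keratins whose treated libraries all lay above both untreated ones numbered 3 in isotype (26.2% of all genes), 1 in MAR1 (33.0%), 1 in fl/fl (12.6%) and 2 in cKO (20.9%). Those that lay below both numbered 4 in isotype (22.6%), 7 in MAR1 (36.5%), 3 in fl/fl (15.4%) and 4 in cKO (22.0%). The share of the 10 that lay above both was near or under that of all genes in each group. With the log2 share of counts on receptor genes as a covariate, edgeR called 0 of the 10 in MAR1 (3 at an unadjusted p under 0.05). Of all 20939 genes, that fit called 3 in MAR1 (1410 at an unadjusted p under 0.05). Without untreated 1, which had the higher level of each keratin in untreated skin, the median shift of the 10 log2 fold changes was 0.99 in each of the 4 comparisons, against -0.10 to -0.03 for all genes. That fit has 1 untreated library, which is assumed to vary like the other groups, and the same holds wherever either untreated library is left out below. The median log2 fold change of the 10 was -0.76 in isotype, -3.06 in MAR1, -0.17 in fl/fl and -0.40 in cKO, beside 0.11, -0.02, 0.00 and 0.06 for all genes tested.

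**Figure D3:**
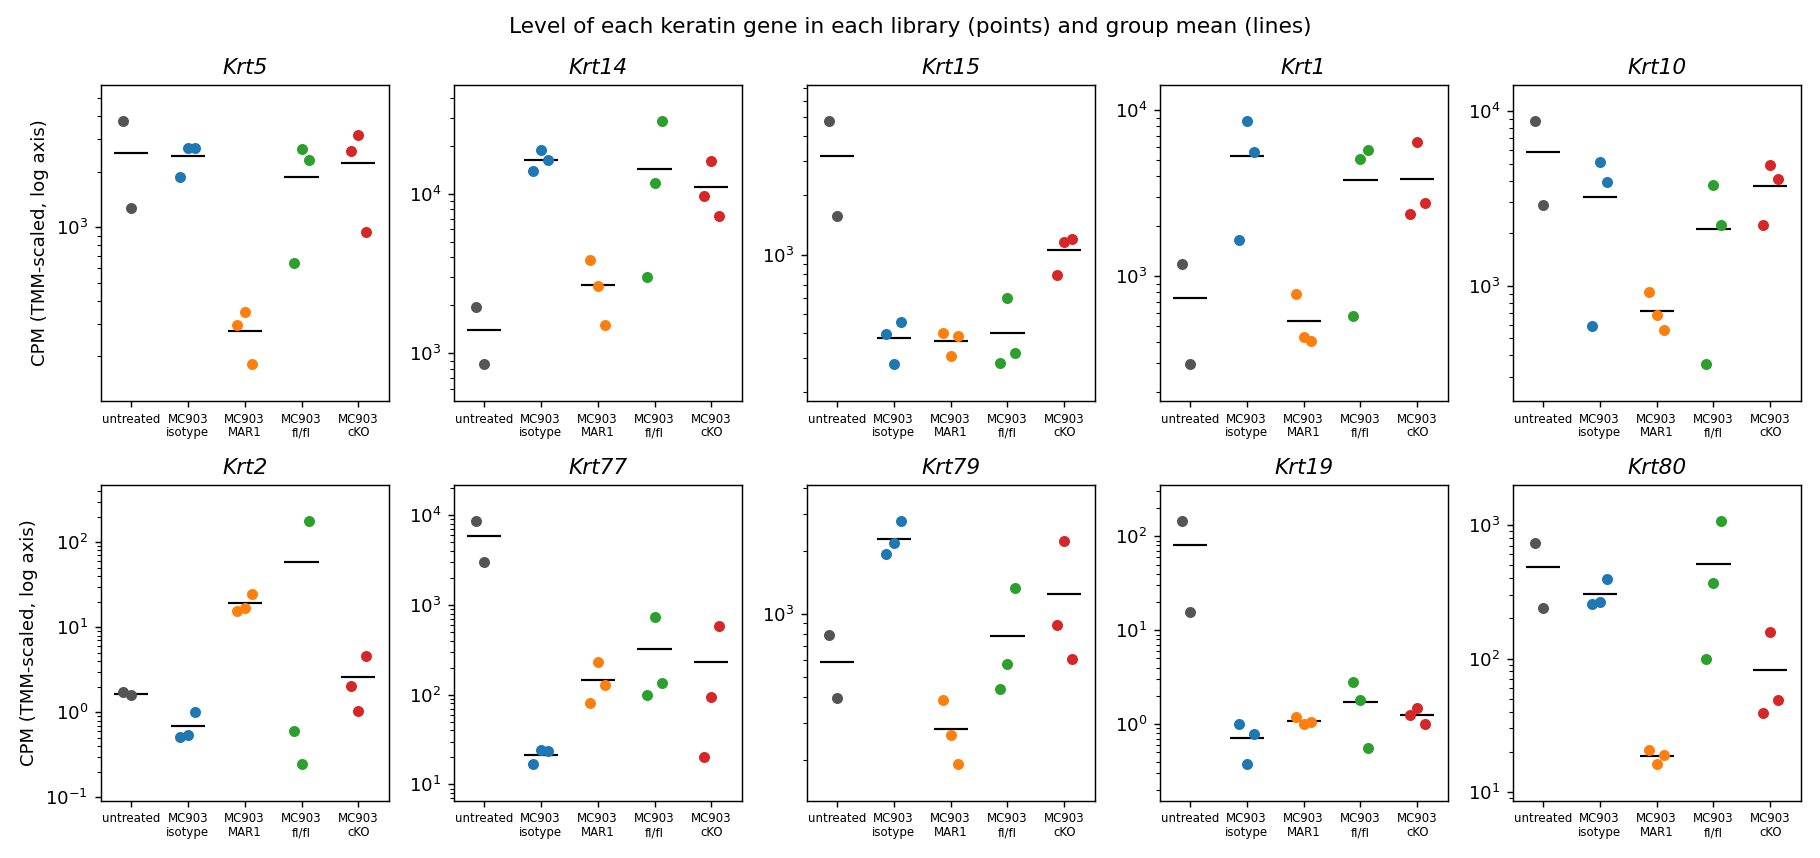
Level of each keratin in every library (CPM, log axis) by group, 1 panel per gene and 1 point per library. Krt77 and Krt19 are highest in the 2 untreated libraries, and Krt14 is above both untreated levels in all isotype, fl/fl and cKO libraries.

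Of the basal keratins, Krt14 rose in isotype and cKO skin, Krt15 fell in isotype, MAR1 and fl/fl skin, and Krt5 fell in MAR1 skin, each against untreated skin. Krt14 was at 1967.5 and 852.8 CPM in the untreated libraries, at 13910.9, 18935.4 and 16277.6 in isotype, at 3003.1, 11768.0 and 28548.7 in fl/fl and at 9660.6, 16009.9 and 7323.3 in cKO. All libraries of these 3 groups were above both untreated ones. In MAR1 it was at 3837.1, 2656.7 and 1511.3 CPM, which overlapped the untreated range. Krt14 rose by 3.54 ± 0.84 in isotype (adjusted p = 0.037) and 2.96 ± 0.81 in cKO (adjusted p = 0.044), while fl/fl gave 3.36 ± 0.83 (adjusted p = 0.057, and 8.3e-05 with DESeq2) and MAR1 0.92 ± 0.74 (adjusted p = 0.3).

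The Krt14 calls were close to the threshold. Without any 1 of the untreated or isotype libraries, the isotype call was lost (adjusted p = 0.096 to 0.14, log2 3.42 to 4.26). The cKO call was lost without either untreated library, without cKO 1 and without cKO 3 (adjusted p = 0.065 to 0.17). With all samples kept, the scaling to an epithelial panel of 12 genes gave adjusted p = 0.065 in isotype and 0.097 in cKO. Of the Krt14 transcript's stretches of 31 bases, 29.1% also occur in other genes (GENCODE M21 transcripts), above all in Krt16 and Krt17, so reads could be split among them by the counting. Krt16, a keratin of wounded and inflamed epidermis, was at 31 and 6.15 CPM in untreated skin and at 601.5 to 13977.2 in treated skin. Its part in the Krt14 result was not tested.

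Krt5, the partner of Krt14, was at 3743.2 and 1273.9 CPM in untreated skin and at 1863.5, 2699.5 and 2692.2 in isotype. It was at 640.1, 2640.5 and 2315.8 in fl/fl and at 2600.1, 3154.4 and 943.4 in cKO, so these 3 groups overlapped untreated skin. In MAR1 it was at 294.2, 345.0 and 180.1 CPM, below every other library of the study. It fell by 3.20 ± 0.65 in MAR1 (adjusted p = 0.0016), and the other differences from untreated skin lay between -0.43 and -0.05 (adjusted p = 0.81 to 0.99). With the receptor share as a covariate the MAR1 call was lost and its direction turned (0.78, adjusted p = 0.97). Of the Krt5 transcript, 12.8% of 31-base stretches are shared with other genes, mostly Krt6a and its relatives.

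Krt15 was at 4741.3 and 1572.0 CPM in untreated skin and lower in all 12 treated libraries, at 392.9, 276.8 and 455.5 in isotype, 401.4, 305.7 and 385.3 in MAR1 and 280.3, 602.2 and 317.4 in fl/fl. The cKO libraries lay between these and untreated skin, at 783.1, 1164.3 and 1203.8 CPM. Its fall was called in isotype (log2 -3.07 ± 0.48, adjusted p = 0.0062), MAR1 (-3.12 ± 0.48, adjusted p = 0.00036) and fl/fl (-2.98 ± 0.48, adjusted p = 0.0099). In cKO skin the value was -1.59 ± 0.47 (adjusted p = 0.057, and 0.02 with DESeq2). The isotype call was lost without untreated 1 (log2 -2.07, adjusted p = 0.073), and the fl/fl call with only the libraries of the 2 groups in the fit (adjusted p = 0.33).

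Of the suprabasal keratins, Krt77 was far lower in treated skin, Krt10 was lower under MAR1, and no change in Krt1 or Krt2 passed edgeR's test against untreated skin. Krt77 was at 8572.6 and 2992.0 CPM in untreated skin, where it held rank 2 of the 10 per length. In isotype it was at 16.8, 24.1 and 23.6 CPM and in MAR1 at 80.8, 231.1 and 129.4. The fl/fl libraries held 99.2, 731.5 and 135.3 CPM and the cKO libraries 20.4, 93.3 and 579.6, so every treated library was below both untreated ones.

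Krt77 fell in isotype by 268.8-fold (log2 -8.07 ± 1.36, adjusted p = 0.011), and it fell in MAR1 (-5.30 ± 1.21, adjusted p = 0.0038) and cKO (-4.65 ± 1.18, adjusted p = 0.038). In fl/fl the value was -4.17 ± 1.16 (adjusted p = 0.086). Without untreated 1 the isotype fold was 139.1 (log2 -7.12, adjusted p = 0.046). The isotype call was lost without any 1 of the isotype libraries (adjusted p = 0.06 to 0.065), and DESeq2 gave no adjusted p for it. In cKO the call was lost without untreated 1 (log2 -3.70), without cKO 1 (adjusted p = 0.056) and without cKO 2 (adjusted p = 0.081). It was also lost with the untreated libraries summed (log2 -4.53). With all libraries kept, the cKO call was lost without a filter, with only the groups compared and with panel scaling (adjusted p = 0.065 to 0.14). A block for the replicate number gave adjusted p = 0.062 in edgeR. With the receptor share as a covariate its adjusted p was 0.51.

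Krt10, the type I partner of Krt1, was at 8729.6 and 2890.1 CPM in untreated skin. It was at 586.9, 5137.2 and 3916.0 in isotype, 354.6, 3756.5 and 2235.7 in fl/fl and 2231.3, 4892.8 and 4085.7 in cKO, each overlapping untreated skin. In MAR1 it was at 916.6, 682.2 and 560.9 CPM, below both untreated libraries. The MAR1 difference was called, at -3.01 ± 0.89 (adjusted p = 0.014), and the call was lost without untreated 1, MAR1 2 or MAR1 3 (adjusted p = 0.051 to 0.14). With the receptor share as a covariate it gave 0.54 (adjusted p = 1). The other 3 groups gave -1.46 to -0.64 (adjusted p = 0.39 to 0.66).

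Krt1 was at 1179.3 and 293.9 CPM in untreated skin and at 1648.4, 8587.2 and 5643.9 in isotype, where all libraries were higher. It was also above both untreated libraries in cKO, at 2368.1, 6470.3 and 2766.5 CPM, and it ranged from 578.1 to 5798.8 in fl/fl. In MAR1 it was at 784.1, 431.2 and 406.5 CPM, within the untreated range. The differences were 2.85 ± 0.99 in isotype (adjusted p = 0.15), 2.39 ± 0.97 in cKO (adjusted p = 0.13), 2.38 ± 0.97 in fl/fl (adjusted p = 0.21) and -0.45 ± 0.87 in MAR1 (adjusted p = 0.69). DESeq2 called the Krt1 differences in isotype, cKO and fl/fl (adjusted p = 0.013, 0.019 and 0.049). In every group the same library was lowest for both Krt1 and Krt10 (untreated 2, isotype 1, MAR1 3, fl/fl 1 and cKO 1).

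Krt2, a keratin of the upper epidermis of ear, sole and tail in the mouse, was the lowest of the 10 per length in untreated skin, at 1.74 and 1.59 CPM (98 and 67 counts). It was at 0.514 to 1.02 CPM in isotype, at 1.05 to 4.65 in cKO and at 15.6, 17 and 24.9 in MAR1. A single library stood apart: fl/fl 3 held 176.8 CPM (5983 counts), against 0.601 and 0.246 in the other fl/fl libraries. None of the 4 differences from untreated skin passed edgeR's test (adjusted p = 0.13 to 0.85). DESeq2 called Krt2 higher in MAR1 (4.17, adjusted p = 0.012) and fl/fl (5.17, adjusted p = 0.01), and edgeR with only the groups compared called it in MAR1 (3.79, adjusted p = 0.0023). The fl/fl value of 5.15 ± 2.07 became -2.11 without that library.

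Among the keratins of appendages, Krt19 was nearly lost in treated skin. Krt19 was at 144.8 and 15.7 CPM in untreated skin, and its level in all 12 treated libraries was between 0.375 and 2.81 CPM (7 to 103 counts). Its fall was called in all 4 groups. The log2 fold changes were -6.79 ± 0.87 in isotype (adjusted p = 0.0022), -6.20 ± 0.87 in MAR1 (adjusted p = 0.00024), -5.53 ± 0.82 in fl/fl (adjusted p = 0.0055) and -5.99 ± 0.85 in cKO skin (adjusted p = 0.0043). The fl/fl call was lost with only the groups compared (adjusted p = 0.29) and with panel scaling (adjusted p = 0.078). With the receptor share as a covariate the calls in MAR1 (log2 -2.75, adjusted p = 0.87) and cKO (-3.80, 0.35) were lost. Those in isotype and fl/fl were kept (adjusted p = 0.01 and 0.0036). Untreated 1 set much of the size: without it the values were -4.44, -3.85, -3.18 and -3.65, and the calls in isotype, fl/fl and cKO were lost (adjusted p = 0.05, 0.079 and 0.096).

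Krt8 and Krt18, the partner keratins of simple epithelia such as glands, were also lower in every treated library than in both untreated ones. Krt8 was at 115.3 and 10.1 CPM in untreated skin and at 0 to 7.39 in treated skin, and Krt18 was at 74.4 and 9.56 against 0 to 8.17. By edgeR's test both falls were called in MAR1 (adjusted p = 0.022 and 0.0006). In isotype Krt18 was called (adjusted p = 0.03) and Krt8 was not (0.074), and in fl/fl neither was (0.13 for Krt8 and 0.098 for Krt18). Krt7 of the same list overlapped untreated skin in isotype (log2 -0.36, adjusted p = 0.87), MAR1 (-1.53, 0.14) and fl/fl (-1.72, 0.3). In cKO, Krt8 was at 0.567 to 1.12 CPM and Krt18 at 0.491 to 1. Of the 15 keratins tested in that list, edgeR called 2 lower in cKO against untreated (2.96% of all genes). DESeq2 called 0 of them, and edgeR with the receptor share as a covariate 0. The summed level of the 3 simple epithelium markers (Krt7, Krt8, Krt18) was 211.4 and 23.3 CPM in untreated skin and 2.58 to 22.6 in treated skin. Their part in the Krt19 result was not tested.

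Krt79 was at 785.9 and 393.7 CPM in untreated skin, at 1921.3, 2165.6 and 2764.6 in isotype and at 385.4, 263.2 and 190.7 in MAR1. All isotype libraries were above and all MAR1 libraries below both untreated ones, while fl/fl (434.0 to 1324.1 CPM) and cKO (603.9 to 2216.1) overlapped them. None of the 4 differences passed edgeR's test (1.95 ± 0.64, adjusted p = 0.12 in isotype; -1.08 ± 0.58, adjusted p = 0.13 in MAR1). The isotype difference was called by DESeq2 (1.96, adjusted p = 0.0093) and by edgeR with only the groups compared (1.92, adjusted p = 0.016). Krt80 was at 729.7 and 238.4 CPM in untreated skin, at 255.2, 264.1 and 395.8 in isotype and at 20.7, 16.2 and 18.9 in MAR1. It fell by 4.70 ± 0.86 in MAR1 (adjusted p = 0.00096), and cKO gave -2.56 ± 0.80 (adjusted p = 0.066, and 0.013 with DESeq2) with all 3 libraries lower.

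Other genes of the epidermis were counted from lists of known function. Of 5 stress keratins, which wounded or inflamed epidermis makes, 3 rose in each of the 4 treated groups against untreated skin (Krt6a, Krt6b and Krt16). In isotype they rose by 5.43 ± 0.99, 10.18 ± 2.25 and 8.09 ± 1.17 (adjusted p = 0.013, 0.031 and 0.0048). Of all genes, 1.35% were called higher in isotype, 23.4% in MAR1, 0.769% in fl/fl and 3.86% in cKO. In MAR1 Krt75 of the same list fell (log2 -2.94, adjusted p = 0.0085). With the receptor share as a covariate edgeR called 0 of the 5 in MAR1 (3 at an unadjusted p under 0.05), beside 3 of all genes. Of 20 genes of suprabasal differentiation, edgeR called 1 in isotype, while 11 had an unadjusted p under 0.05 and DESeq2 called 8. The gene edgeR called, Flg of the filament-aggregating protein filaggrin, rose by 4.15 ± 0.83 (adjusted p = 0.02). In fl/fl skin Flg rose by 3.83 ± 0.82 and its relative Flg2 fell by 3.43 ± 0.45 (adjusted p = 0.032 and 0.0032). Of 14 genes of basal cell adhesion, 0 passed edgeR's test in isotype, fl/fl or cKO. In MAR1 skin 10 of them fell against untreated, where 25.9% of all genes were called lower. For MAR1 DESeq2 called 5. With the receptor share as a covariate edgeR called 0 of the 14 (1 at an unadjusted p under 0.05), beside 3 of all genes. In the other groups the numbers at an unadjusted p under 0.05 were 2 in isotype, 4 in fl/fl and 2 in cKO, and DESeq2 called 1, 3 and 0. Of 22 follicle and sebaceous genes, Lhx2 and Cd34 fell in isotype (log2 -1.87 ± 0.44 and -2.56 ± 0.45, adjusted p = 0.036 and 0.011). Awat1 and Soat1, of sebaceous lipid metabolism, rose by 3.01 ± 0.64 and 1.51 ± 0.38 (adjusted p = 0.025 and 0.049). Of the 22 estimates, 11 were higher and 11 lower. Lgr5 (-0.69), Lgr6 (-1.52) and Sox9 (0.18) were not called (adjusted p = 0.54, 0.16 and 0.87). Of 22 regulators of the epidermis, edgeR called 1 in isotype (2 at an unadjusted p under 0.05, and 1 with DESeq2). This was Gata3, which fell by 2.28 ± 0.45 (adjusted p = 0.018).

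Under MAR1, compared with the isotype antibody in MC903-treated skin, 6 of the 10 keratins were lower and 2 were higher. This comparison asks what the antibody changed, since both groups were wild-type and had MC903 and injections. Krt5, Krt14, Krt1, Krt10, Krt79 and Krt80 fell and Krt2 and Krt77 rose, while Krt15 and Krt19 did not pass. Of all genes tested, 49.0% were called in this comparison (22.6% higher and 26.5% lower). The median log2 fold change of the 10 keratins was -2.39, beside 0.00 for all genes.

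The log2 fold changes were -3.15 ± 0.62 for Krt5 (adjusted p = 0.0013), -2.62 ± 0.68 for Krt14 (adjusted p = 0.0069), -3.29 ± 0.86 for Krt1 (adjusted p = 0.0074), -3.03 ± 0.57 for Krt79 (adjusted p = 0.001) and -4.03 ± 0.81 for Krt80 (adjusted p = 0.0016). For these 5 genes every MAR1 library was below every isotype library (36.4% of all genes), and for 3, Krt2, Krt77 and Krt19, every MAR1 library was above (32.1%). Krt80 fell the most, from 305.0 ± 78.7 CPM to 18.6 ± 2.27 (SD, n = 3). Krt10 fell by 2.16 ± 0.82 (adjusted p = 0.043), but isotype 1, at 586.9 CPM, lay within the MAR1 range.

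Krt2 rose by 4.78 ± 1.72 (adjusted p = 0.036), from 18 to 35 counts a library in isotype to 166 to 182 in the shallower MAR1 libraries. Krt77 rose by 2.77 ± 1.05 (adjusted p = 0.043), from 21.5 ± 4.07 to 147.1 ± 76.7 CPM, which is still below its untreated level. Krt15 gave -0.04 ± 0.43 (adjusted p = 0.94) and Krt19 0.59 ± 0.75 (adjusted p = 0.51). The calls of Krt10, Krt2 and Krt77 were lost in most fits that left out a library (adjusted p up to 0.15, 0.1 and 0.12), and those of Krt5, Krt14, Krt1, Krt79 and Krt80 were kept in all of them (adjusted p at most 0.035).

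Within libraries, the ratio of Krt1 to Krt10 was lower in all MAR1 than in all isotype libraries, with a log2 difference of -1.37, and Krt77 to Krt1 was higher by 5.72. Krt15 to Krt14 was higher by 2.68. Each gave p = 0.1 by the exact permutation test, the smallest that 3 against 3 allows (adjusted p = 0.26).

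The receptor gene share of counts (3.88% to 9.38% in MAR1, 0.269% to 0.439% in isotype) and the mitochondrial share (0.129% to 0.344% against 2.12% to 2.33%) also separated the groups. With the log2 receptor share as a covariate, edgeR called 0 of the 10 keratins and 0 of all genes (0 keratins and 1537 genes at an unadjusted p under 0.05), and Krt5 gave -0.42 and Krt14 -0.13, while Krt1 and Krt10 changed direction (0.23 and 0.31). In this comparison that share and the antibody cannot be told apart. Scaling to the epithelial panel moved the median of all genes by 1.30 and left Krt14 at -1.30 (adjusted p = 0.11) and Krt10 at -0.76 (adjusted p = 0.41), while 6 of the 8 calls stood, 2 of them higher and 4 lower.

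Genes of the lists were called in MAR1 against isotype as follows, beside 49.0% of all genes (22.6% higher and 26.5% lower). The shares called of the suprabasal genes (45%) and of the regulators (50%) were near that of all genes. All 5 stress keratins fell, among them Krt75 (-3.55), Krt17 (-2.44), Krt6a (-2.74) and Krt6b (-5.59). Of 14 basal adhesion genes, 9 fell, led by the tetraspanin Cd151 (-3.62), the linker Plec (-3.82), the hemidesmosome collagen Col17a1 (-3.56) and the integrin Itgb1 (-2.65), with adjusted p = 0.00027 to 0.00039. Of 20 suprabasal genes, 9 fell and 0 rose, among them Asprv1 (-5.01), Casp14 (-3.83), Cdsn (-4.40) and Dsc1 (-4.95), with adjusted p = 0.0005 to 0.0027. Of 22 regulators, 5 rose and 6 fell, and of 22 follicle and sebaceous genes 5 rose and 8 fell. With the receptor covariate edgeR called 0 genes of each of these 5 lists (0 stress keratins, 3 adhesion genes, 0 suprabasal genes, 4 regulators and 4 follicle and sebaceous genes at an unadjusted p under 0.05).

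**Figure D4:**
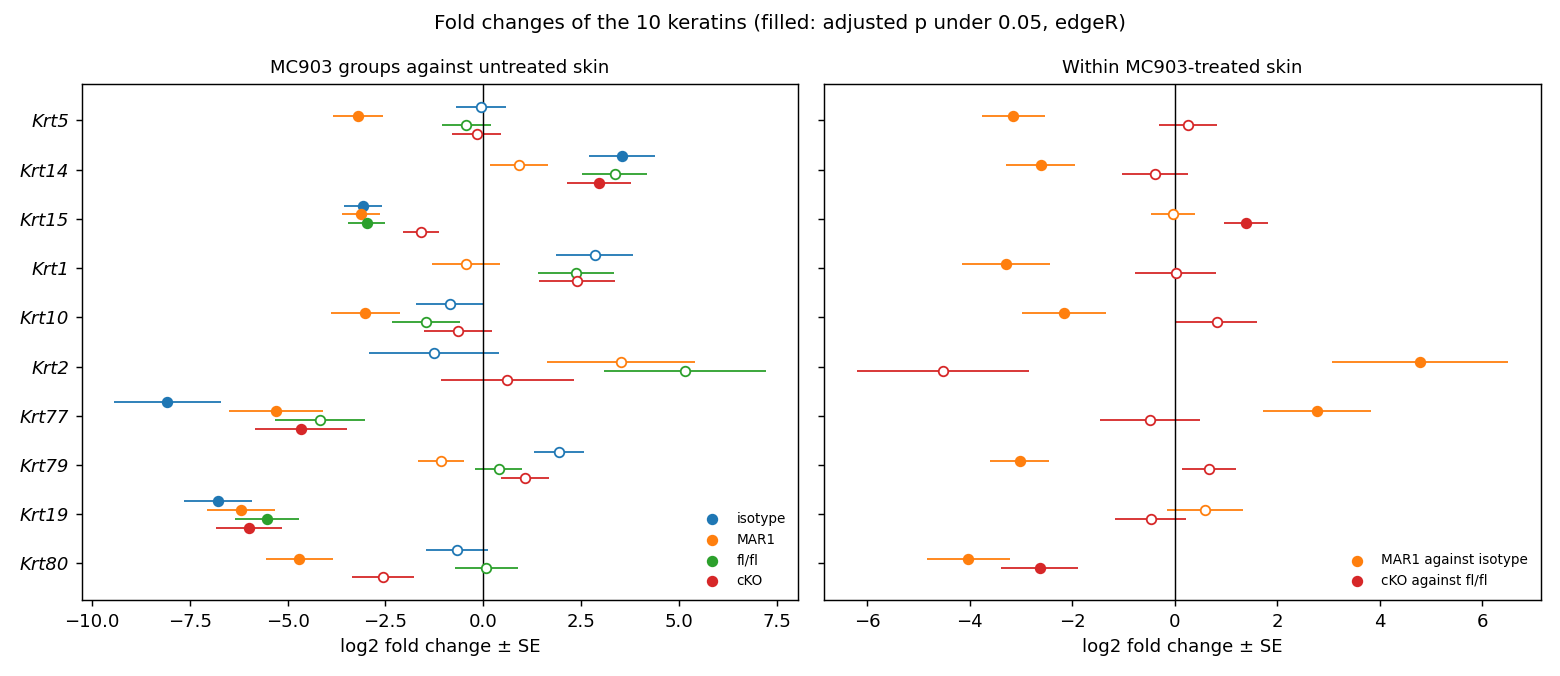
Log2 fold change ± SE (x axis) of each keratin (y axis), with 4 MC903 groups against untreated skin on the left and MAR1 against isotype and cKO against fl/fl on the right; filled points passed an adjusted p under 0.05. Krt19 is called lower in all 4 groups on the left, and on the right MAR1 has 8 filled points and cKO 2.

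In cKO compared with fl/fl skin, 2 of the 10 keratins were called, Krt15 higher and Krt80 lower, and the others did not pass. This comparison asks what the loss of Il4ra in Pdgfra-expressing cells changed in MC903-treated skin. The share of the keratins called, 20%, was near the 18.7% of all genes (12.7% higher and 5.97% lower). All cKO libraries were lower for 0 of the 10 keratins (12.4% of all genes). Krt15 was at 783.1, 1164.3 and 1203.8 CPM in cKO and at 280.3, 602.2 and 317.4 in fl/fl, so that the groups did not overlap (all cKO libraries were higher for 17.0% of all genes). It rose by 1.39 ± 0.43 (adjusted p = 0.039). Krt80 was at 38.8, 159.2 and 48.6 CPM in cKO and at 99.1, 369.6 and 1065.5 in fl/fl, and cKO 2 overlapped fl/fl 1. It fell by 2.64 ± 0.76 (adjusted p = 0.029), and with the receptor share as a covariate its direction turned (0.32, adjusted p = 1).

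Both calls were lost without cKO 3 (adjusted p = 0.11 for Krt15 and 0.12 for Krt80). Krt80 was lost without fl/fl 3 as well (log2 -1.11, adjusted p = 0.22) and without cKO 1 (adjusted p = 0.083). With only the groups compared both missed the threshold (adjusted p = 0.071 for Krt15 and 0.13 for Krt80), and with panel scaling Krt15 gave 0.80 (adjusted p = 0.32). Without the fl/fl libraries 1 and 2, which carried salivary transcripts, Krt15 gave 2.03 (adjusted p = 0.075), in a fit where fl/fl is 1 library that is assumed to vary like the other groups. Relative to Krt14, Krt80 was lower in all cKO libraries, with a log2 difference of -2.40 (p = 0.1, exact permutation test, the smallest possible, adjusted p = 0.26). The ratio of Krt1 to Krt10 was lower in all of them too, at -0.86 (p = 0.1, exact permutation test, adjusted p = 0.26).

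The basal pair did not pass in this comparison, with 0.26 ± 0.57 for Krt5 (adjusted p = 0.79) and -0.39 ± 0.64 for Krt14 (adjusted p = 0.7), nor did the suprabasal pair, with 0.02 ± 0.79 for Krt1 (adjusted p = 1) and 0.82 ± 0.79 for Krt10 (adjusted p = 0.49). A p that misses the threshold does not show that the groups were alike. Krt77, Krt79 and Krt19 gave -0.48, 0.67 and -0.47 (adjusted p = 0.39 to 0.77), and Krt2 gave -4.53 (adjusted p = 0.076), set by fl/fl 3. Without that library Krt2 was higher in cKO, by 3.00 (adjusted p = 0.018).

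Among the listed genes, 0 of 5 stress keratins passed edgeR's test (1 at an unadjusted p under 0.05, and 1 called by DESeq2). Of 20 suprabasal genes, Flg2 and Ivl rose by 2.24 and 1.79 (adjusted p = 0.0037 and 0.024) and Tgm3 and Cdsn fell (log2 -3.54 and -3.09, adjusted p = 0.028 and 0.029). Of 14 basal adhesion genes, Col7a1, the anchoring fibril collagen, rose by 2.56 (adjusted p = 0.0033). Of 22 follicle and sebaceous genes, 5 rose and 0 fell, or 22.7% called beside 18.7% of all genes (12.7% higher). The follicle stem cell genes Lgr5, Lgr6 and Sox9 rose by 2.95, 2.23 and 1.57 (adjusted p = 0.0043, 0.011 and 0.013), and Soat1 by 1.47 (adjusted p = 0.0087). Of the 22 estimates, 17 were higher and 5 lower. Lhx2 of the same list was at 9.49 ± 3.34 CPM (SD) in cKO and 10.3 ± 2.68 in fl/fl. The receptor share was 0.467% to 2.58% in cKO and 0.048% to 0.0769% in fl/fl. With it as a covariate edgeR called 0 of the 10 keratins and 0 of the 22 follicle and sebaceous genes (4 and 2 at an unadjusted p under 0.05). Of all genes, that fit called 14 (1894 at an unadjusted p under 0.05). The receptor share and the genotype cannot be told apart here.

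The effect of the deletion differed from the effect of MAR1 for 3 keratins, by the difference of the 2 differences in the same fit (7.96% of all genes were called, 6.14% higher and 1.82% lower). For Krt5 it was 3.41 ± 0.83 (adjusted p = 0.032) and for Krt79 3.70 ± 0.77 (adjusted p = 0.024): both fell under MAR1 and did not pass in cKO. For Krt2 it was -9.31 ± 2.41 (adjusted p = 0.039), and without fl/fl 3 it was -1.77 (adjusted p = 0.18). Without any 1 of the isotype libraries none of these 3 passed (adjusted p = 0.051 to 0.1), and each such fit called 1 of all genes. With panel scaling Krt5 gave 1.83 (adjusted p = 0.14) and Krt79 1.90 (adjusted p = 0.12). Of the 14 basal adhesion genes, 7 passed and each was higher, among them Col17a1 (3.63), Cd151 (2.98), Itgb1 (2.64) and Plec (3.05), with adjusted p = 0.02 to 0.027. The experiments also differ in genotype, age and injections.

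The order of the groups by mean level was read against the spread of the libraries. For Krt5, Krt1 and Krt10 no neighbours in that order were separated, apart from MAR1 below fl/fl for Krt5. For Krt15 the order was untreated (3156.6 ± 2241.0 CPM), cKO (1050.4 ± 232.3), fl/fl (400.0 ± 176.1), isotype (375.0 ± 90.7) and MAR1 (364.2 ± 51.3), and the last 3 overlapped. For Krt77 it was untreated, fl/fl, cKO, MAR1 and isotype, where untreated and isotype stood apart from their neighbours. For Krt80 it was fl/fl, untreated, isotype, cKO and MAR1, and isotype did not overlap cKO, nor cKO MAR1.

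The genes most like 4 of the keratins over the 14 libraries were found by the root-mean-square difference of log2 CPM after centring each gene, among 11230 genes. Closest to Krt14 were Ehf, Flg and Crabp2 (0.42, 0.42 and 0.44, where the median gene was at 1.56). Closest to Krt10 were Them5, Loricrin and Camsap3 (0.42, 0.56 and 0.63, with a median of 1.46). Krt77 had no gene as near: Sfrp2, Ear2 and Krt19 were at 1.55, 1.56 and 1.56 (median 2.75). For Krt19 they were Dapl1, Ear2 and Plin1 (1.03, 1.09 and 1.12, median 2.18). Genes of 1 library share its depth and tissue content, and the likeness is a description.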

How the data were processed

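Polyadenylated RNA of whole neck skin was sequenced in 14 libraries, and per the series' design text each sample came from 1 mouse. The 2 untreated libraries have names that differ by a suffix alone, and the labels do not say if they came from different mice or if vehicle was used. If they share a mouse, the spread between them is technical. The values are estimated counts per gene symbol as deposited by the authors, with decimals and without scaling between libraries. GRCm39, DESeq2 1.44.0 and Salmon 1.2.1 appear in the submitters' processing notes with no role given. An entry without a gene name (0.0137% to 0.913% of counts) was left out.

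Counts were rounded and fitted with edgeR 4.0.16 (R 4.3.3) by robust quasi-likelihood over 5 group means, with TMM scaling and the filterByExpr filter. This left 20939 genes, all 10 keratins among them, 9 residual degrees of freedom and a common dispersion of 0.361. SEs were derived from the fold change and its F statistic. Replicate libraries differed by 17.32 to 984.9 times the counting noise (chi-square per degree of freedom), so none was counted as 1 library deposited more than once; this does not show that they came from different mice. Ratios used counts plus 0.5 and exact two-sided permutation tests. The fit was tested on simulated data. Alternatives were RLE scaling, DESeq2 1.42.0, other filters, fits of only the groups compared, a replicate block, scaling to 12 epithelial genes, a receptor share covariate, the untreated libraries summed, and each library left out.

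All 10 keratins are described. Of each gene list at most 4 called genes, those with the smallest p, are named per comparison, and some that were not called are named beside them. Likeness is given for Krt14, Krt10, Krt77 and Krt19. The keratins and lists were chosen with earlier results of these data known. Promoter sequences are RefSeq's and transcript lengths GENCODE M21's.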

Additional observations from a re-analysis of the deposited data

Results flagged for a closer look

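The effect of the Il4ra deletion (cKO minus fl/fl) differed from the effect of MAR1 (MAR1 minus isotype) for 3 of the 10 keratins, by edgeR's test of the difference itself. For Krt5 the difference was 3.41 ± 0.83 on the log2 scale (adjusted p = 0.032), from -3.15 under MAR1 and 0.26 in cKO. For Krt79 it was 3.70 ± 0.77 (adjusted p = 0.024), from -3.03 and 0.67. For Krt2 it was -9.31 ± 2.41 (adjusted p = 0.039), from 4.78 and -4.53. The Krt2 value rests on fl/fl 3, at 176.8 CPM against 0.601 and 0.246 in the other fl/fl libraries, and is -1.77 without it. Without any 1 of the isotype libraries none of the 3 passed (adjusted p = 0.051 to 0.1), and each such fit called 1 of all genes. With panel scaling Krt5 gave 1.83 (adjusted p = 0.14) and Krt79 1.90 (adjusted p = 0.12). The shares of receptor gene counts and of salivary gland transcripts also differed between these groups. With the receptor share as a covariate Krt5 gave 3.54 (adjusted p = 0.0061) and Krt79 3.75 (adjusted p = 0.0034). Without fl/fl 1 and 2, the libraries with salivary transcripts, they gave 3.37 (adjusted p = 0.11) and 3.21 (adjusted p = 0.12), with fl/fl as 1 library.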

How the results depend on the processing

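Of 673 fold changes recomputed under other settings, 549 kept their direction and their side of the threshold, 60 were no longer called, 25 became called and 39 changed direction. Of 440 with a library left out, these numbers were 345, 60, 10 and 25. The 60 keratin ratios moved by less than the spread between libraries with rounded counts, and 12 of 320 moved further with a library left out.

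The number of keratins called moved by more than 1.5 times in these cases. It was 5 with DESeq2 in both fl/fl and cKO against untreated skin (2124 and 4916 of all 35327 genes). With only the groups compared it was 0 in fl/fl and 1 in cKO against untreated, and 0 in cKO against fl/fl. Of all genes, those fits called 0 of 16893, 168 of 17976 and 1409 of 17036. Scaling to the epithelial panel gave 0 keratins in fl/fl against untreated and 1 in cKO against fl/fl (186 and 2702 of 20939 genes). Without a filter the number was 5 in MAR1 against isotype (9530 of 26346 genes). The receptor covariate gave 0 in MAR1 against untreated (3 of 20939 genes), MAR1 against isotype (0 genes) and cKO against fl/fl (14 genes). It gave 1 in cKO against untreated (125 genes) and 6 in the difference of effects (3782 genes). Summing the untreated libraries gave 1 in cKO. Without fl/fl 1 and 2 it was 4 in fl/fl against untreated and 1 in the difference of effects, and without MAR1 3 and cKO 3 it was 0 in cKO against fl/fl (both chosen after seeing the data). The former leaves fl/fl 3 alone in its group, assumed to vary like the others, and that library holds the outlying Krt2 level. The fit without MAR1 3 and cKO 3 called 1692 of 19901 genes in cKO against fl/fl. With each library left out in turn, the number ranged from 1 to 3 in isotype, 1 to 3 in fl/fl and 0 to 3 in cKO against untreated, 5 to 7 in MAR1 against isotype, 0 to 3 in cKO against fl/fl and 0 to 5 in the difference of effects. The number was lowest without untreated 1 in isotype (1), fl/fl (1) and cKO (0) against untreated.

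Libraries with the same number in their sample titles deviated little together. The correlations were -0.144, -0.0942 and 0.0632 for isotype with MAR1, and 0.0771, 0.0324 and -0.0562 for fl/fl with cKO. The library names carry numbers that differ in part from these and were not lined up. These values therefore cannot show whether samples were paired. With the replicate block the count of keratins was 1 in cKO against untreated, 0 in cKO against fl/fl and 1 in the difference of effects. Of all genes, that fit called 383, 3063 and 537 in these comparisons. In it Krt2 in cKO (-0.49), Krt5 in isotype (0.00) and Krt80 in fl/fl (-0.46) changed direction against untreated.

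Values that changed direction were mostly of genes not called. With RLE scaling and with DESeq2, Krt1 in MAR1 against untreated was 0.11 and Krt15 in MAR1 against isotype 0.55. These scalings moved the median of all genes by 0.60 and 0.59 in these comparisons with RLE. Panel scaling gave 0.61 and 1.28 for the same pair, -0.04 for Krt1 and -0.00 for Krt5 in cKO against fl/fl, and -0.48 for Krt15 in the difference of effects. Krt15 in MAR1 against isotype was 0.05 with only the groups compared and with a stricter filter. With the receptor covariate, against untreated skin, MAR1 gave Krt1 4.67, Krt10 0.54, Krt5 0.78 and Krt79 2.51, cKO gave Krt10 1.59, Krt5 2.13 and Krt2 -0.45, isotype gave Krt10 0.23, Krt5 1.21 and Krt80 0.72, and fl/fl gave Krt79 -0.22 and Krt80 -0.54. MAR1 against isotype gave Krt1 0.23, Krt10 0.31 and Krt15 1.13, and cKO against fl/fl gave Krt14 2.34, Krt19 1.73 and Krt80 0.32. Summing the untreated libraries gave Krt80 -0.31 in fl/fl. Without fl/fl 1 and 2, cKO against fl/fl gave Krt1 -0.29, Krt19 1.44 and Krt77 1.11, and the difference of effects gave Krt19 0.85. Without MAR1 3 and cKO 3, cKO against untreated gave Krt2 -0.10 and Krt5 0.20. The cause of these changes was not tested.

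Left-out libraries gave these ranges where a direction changed. Against untreated, isotype gave Krt5 -0.15 to 0.92, Krt10 -1.37 to 0.15 and Krt80 -0.90 to 0.36, MAR1 gave Krt1 -0.81 to 0.87, fl/fl gave Krt5 -1.01 to 0.55, Krt2 -2.11 to 5.73, Krt79 -0.35 to 0.98 and Krt80 -1.16 to 1.10, and cKO gave Krt5 -0.31 to 0.81, Krt10 -0.75 to 0.37 and Krt2 -0.10 to 1.37. MAR1 against isotype gave Krt15 -0.22 to 0.12. In cKO against fl/fl the ranges were Krt14 -0.55 to 0.97, Krt1 -0.15 to 0.85, Krt2 -5.25 to 3.00, Krt77 -2.50 to 0.98 and Krt19 -0.50 to 0.44. DESeq2 gave no adjusted p for Krt77 in isotype. Counting error is largest for Krt2 and Krt19, with as few as 11 and 7 counts in a library; the 11 are in fl/fl 2, among the deeper libraries (47996020 counts).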
